A study of Mus musculus with 16 samples.

Results

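Growth hormone signalling and insulin-like growth factor (IGF) output of the mouse liver were followed through 10 genes: Ghr, Stat5b, Socs2, Cish, Igf1, Igfals, Igfbp1, Igfbp2, Igfbp4 and Bcl6. They were taken by symbol, as the rows of the count table whose Ensembl identifier maps to these names, and the rule uses no measured value. All 10 were found among the 46078 genes of the table, and all 10 passed the filter on low counts that left 15075 genes for testing. The livers came from mice of the strain spelled C56B6/J in the labels and C57BL6/J in the methods of the study, which used males, and the labels name no transgene or deletion in any group. The 4 groups were control diet fed ad libitum (CD fed), control diet fasted for 16 h (CD fast), high-fat diet fed ad libitum (HFD fed) and high-fat diet fasted for 16 h (HFD fast), with 4 livers and thus 4 poly(A) RNA-seq libraries in each. All mice had been on their diet for 16 weeks, and the high-fat diet supplied 60% of its calories as fat.

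Growth hormone is released by the pituitary in pulses and binds its receptor on hepatocytes, where the kinase JAK2 phosphorylates STAT5B. Phosphorylated STAT5B enters the nucleus and induces Igf1, Igfals, Socs2 and Cish, and it lowers Bcl6. The liver is the main source of circulating IGF1, most of which travels in a complex with IGFBP3 and the acid-labile subunit, while smaller binding proteins hold the rest and limit its access to receptors. Insulin sensitises the liver to growth hormone and represses Igfbp1, which places the axis under the control of nutrition.

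Each library held 41364448 to 57583153 counts assigned to genes, and the fewest counts of any axis gene in any library were 94 (Cish in a CD fast liver). Levels are given as CPM, the counts relative to library size after TMM scaling, which equalises the bulk of genes between libraries. Changes are log2 fold changes with their SE from edgeR's quasi-likelihood test, with p-values adjusted by Benjamini-Hochberg over all 15075 genes and called under 0.05. The 6 hepatocyte markers (Alb, Ttr, Apoa1, Apob, Cps1 and Ass1) summed to 78590 to 145653 CPM over all 16 libraries, while the 4 cholangiocyte markers reached at most 20.5 CPM and the 5 exocrine pancreas markers at most 1.80 CPM. The 4 adipocyte markers reached 70.2 CPM in an HFD fast library, nearly all of it Cfd (70.1 CPM, called higher on fasting in HFD), while Adipoq, Lep and Plin1 stayed under 1 CPM in all libraries. The HFD fed and HFD fast libraries numbered 4 deviated from their group means together (r = 0.66 over all genes tested), and where leaving them out changed a call or a direction of an axis gene, this is said. In whole liver, fewer cells of a type and less RNA per cell cannot be told apart.

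Per kilobase of exon, the binding protein genes Igfbp4 (293 CPM per kb, mean of 16 libraries) and Igfbp2 (273 CPM per kb) stood highest. The length used joins the exons of all annotated isoforms, such as 6419 bases for Cish and 9531 for Socs2. A gene whose main transcript is shorter than that reads too low, so the order between genes is approximate. Igfbp1 (57.0 CPM per kb), Igf1 (44.7 CPM per kb), Ghr (42.5 CPM per kb) and Igfals (31.4 CPM per kb) formed a middle tier. Stat5b lay at 10.4 CPM per kb, and the lowest levels were those of the repressor Bcl6 (4.53 CPM per kb) and the feedback inhibitors Cish (3.73 CPM per kb) and Socs2 (2.05 CPM per kb). This order is that of the mean over all libraries and did not hold in every group. The level of Igfbp1 rests on CD fast replicate 2: without it the mean was 33.9 CPM per kb, below Igf1 and Ghr. Group means of Igfbp1 ran from 11.9 to 133 CPM per kb, the latter in CD fast (42.5 CPM per kb without that library), Igfbp2 lay above Igfbp4 in CD fast livers (428 against 345 CPM per kb), and Bcl6 was the lowest of the 10 there (1.96 CPM per kb).

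**Figure D1:**
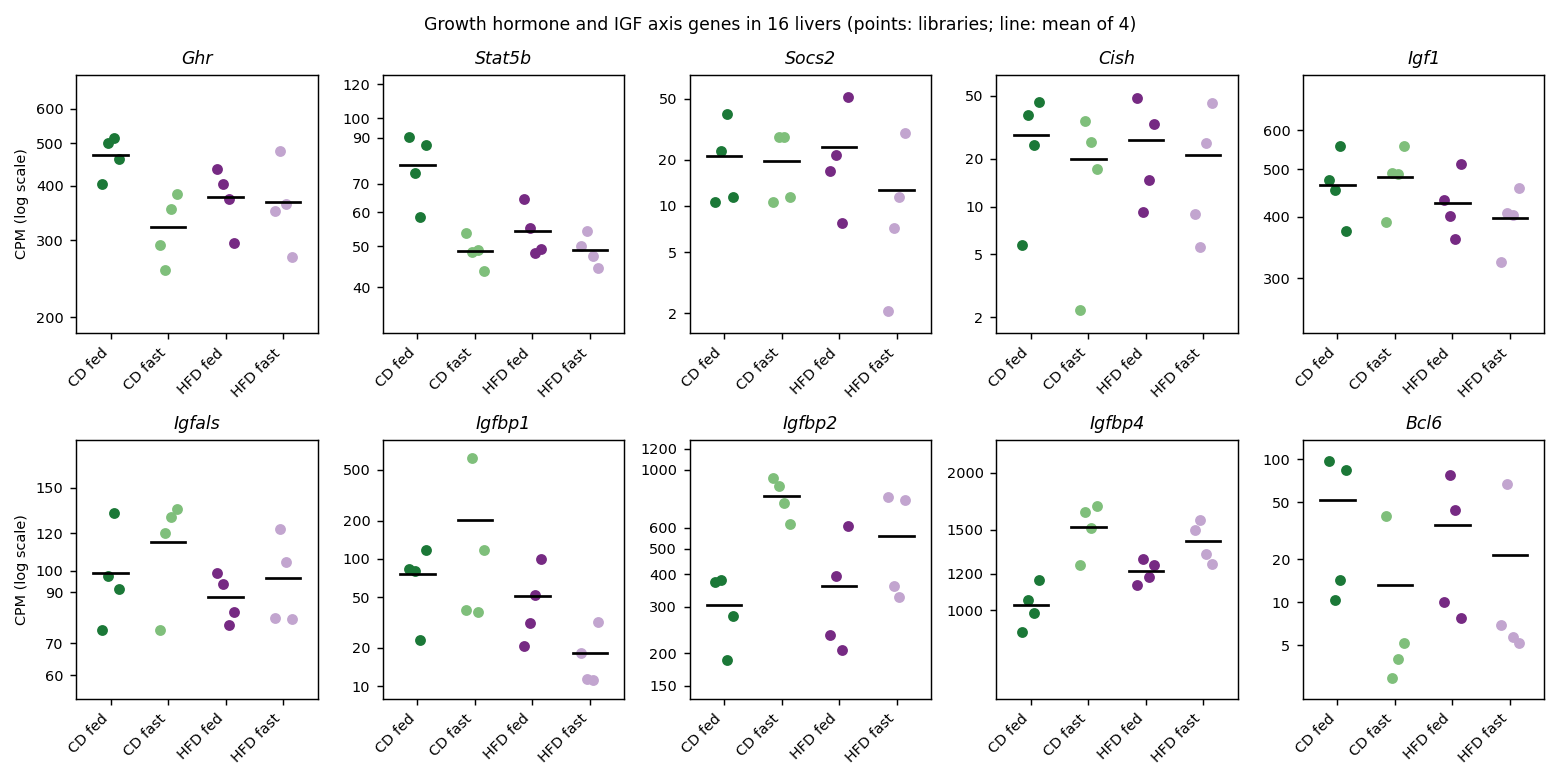
Levels of the 10 axis genes in each liver. The vertical axes give TMM-scaled CPM on a log scale with its own range for each gene, points are libraries and horizontal lines are group means of 4. Stat5b sits lower in all CD fast than in all CD fed livers, Igfbp2 and Igfbp4 sit higher, and Igfbp1 and Bcl6 scatter widely within groups.

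Fasting on the control diet lowered the transcripts of the receptor and its transcription factor and raised those of the binding proteins Igfbp2 and Igfbp4. Igf1 itself did not pass the test, and the call of Ghr was lost in some omissions of a single library. Of the 10 genes, 4 were called, against 25.2% of all genes tested (2 higher, against 13.7%, and 2 lower, against 11.5%), and the libraries of the fed and fasted groups did not overlap for those 4, against 25.4% of all genes. A count of 4 of 10 on this background is not a result about the axis as a whole, and the members are therefore described by their own values.

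Ghr (ENSMUSG00000055737, chr15:3317760-3583492, minus strand, GRCm38) encodes the growth hormone receptor. Its level was 404, 500.3, 514 and 462 CPM in the 4 CD fed livers and 294, 257, 354 and 384 CPM in the 4 CD fast livers. Every CD fast liver lay below every CD fed liver, and the mean fell from 470.0 ± 49.0 to 322 ± 57.2 CPM (SD, n = 4 each), a log2 fold change of −0.55 (SE 0.17, edgeR adjusted p = 0.0267). The call was lost without CD fed replicate 2 (adjusted p = 0.0639), CD fed replicate 3 (0.0658), CD fast replicate 1 (0.0681) or CD fast replicate 2 (0.0847). On the high-fat diet Ghr stood at 438, 404, 374 and 297 CPM in fed livers and at 350.0, 481, 363 and 275 CPM in fasted livers. The HFD groups overlapped, with a log2 difference of −0.04 (95% interval −0.40 to 0.31, edgeR adjusted p = 0.905).

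Stat5b (ENSMUSG00000020919, chr11:100780731-100850724, minus strand) encodes the transcription factor that relays the signal. It measured 90.4, 74.3, 58.4 and 86.4 CPM in CD fed livers and 53.7, 48.5, 49.0 and 43.6 CPM in CD fast livers. The groups did not overlap, and the fall of 0.67 on the log2 scale (SE 0.13, edgeR adjusted p = 0.00160) was called with any single library left out. In HFD fed livers the level was already 64.6, 55.2, 48.2 and 49.4 CPM, and in HFD fast livers it was 49.9, 54.3, 47.3 and 44.4 CPM. The 3 groups other than CD fed thus covered one range, and CD fed stood above it except for its lowest liver. Stat5b was the only axis gene called for HFD against CD in fed mice (1 of 10, against 7.5% of all genes tested), at −0.51 (SE 0.13, edgeR adjusted p = 0.0242). The libraries of these groups overlapped, as did those of all other members in that contrast, whereas 15.7% of all genes had no overlap. This call was less firm than the one for fasting: it was lost in a fit of the compared groups alone (adjusted p = 0.0686), without both HFD libraries numbered 4 (0.0565), and without CD fed replicate 1 (0.0691), 2 (0.0529) or 4 (0.0643) or HFD fed replicate 3 (0.0784) or 4 (0.0600). Between CD fast and HFD fast livers the log2 difference of Stat5b was 0.01 (95% interval −0.26 to 0.28).

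The feedback inhibitors Socs2 and Cish, which are induced by STAT5 and restrain signalling at the receptor, were called in no contrast. Socs2 (ENSMUSG00000020027, chr10:95385362-95417180, minus strand) measured 10.6, 22.9, 40.1 and 11.5 CPM in CD fed livers, 10.7, 28.2, 28.2 and 11.5 CPM in CD fast livers, 16.9, 21.6, 7.69 and 51.5 CPM in HFD fed livers and 2.06, 7.23, 11.5 and 30.2 CPM in HFD fast livers. The livers of a group thus lay 2.64-fold (CD fast) to 14.6-fold (HFD fast) apart, and the fold between the lowest and the highest of the 16 libraries was 25.0. The log2 change on fasting was −0.11 (95% interval −1.56 to 1.33) in CD and −0.94 (−2.40 to 0.53) in HFD, so that changes of more than 2-fold in either diet lay within the interval. The change in HFD was −0.27 without HFD fed replicate 4, −1.82 without HFD fast replicate 4 and −1.15 without both.

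Cish (ENSMUSG00000032578, chr9:107296026-107302784, plus strand) measured 5.74, 37.7, 24.6 and 45.5 CPM in CD fed livers, 2.22, 34.6, 25.7 and 17.2 CPM in CD fast livers, 48.6, 9.30, 14.7 and 33.0 CPM in HFD fed livers and 8.96, 5.60, 25.2 and 44.8 CPM in HFD fast livers. The fold between lowest and highest was 21.9, and the groups covered the same range. Genes on the opposite strand overlap 740 bases of its exons, and although the reads were aligned as strand-specific (fr-firststrand), the strand setting of the counting is not given in the sources used here, so that it is not known whether a part of its counts belongs to them. The sequence around its RefSeq start is shown because it holds a pair of matches to TTCNNNGAA, the letters that STAT5 is known to recognise, which read the same on both strands. The stretch below is chr9:107296654-107296683 on the plus strand (RefSeq, GRCm38.p6), the capitals mark the matches, and the first match begins at the annotated start itself.
Cish: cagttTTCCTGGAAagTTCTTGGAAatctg

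Igf1 (ENSMUSG00000020053, chr10:87858265-87937042, plus strand), the hormone at the end of the pathway, was among the steadiest members. It measured 476, 453, 557 and 374 CPM in CD fed livers, 390.4, 491, 489 and 557 CPM in CD fast livers, 433, 402, 360.0 and 512 CPM in HFD fed livers and 324, 406, 404 and 459 CPM in HFD fast livers. All groups overlapped. On fasting the log2 change was 0.05 (95% interval −0.26 to 0.36, edgeR adjusted p = 0.835) in CD and −0.10 (−0.41 to 0.21, adjusted p = 0.707) in HFD. Between diets in fasted mice it was −0.27 (−0.59 to 0.04, adjusted p = 0.250). A fall of Igf1 as large as that of Stat5b in the CD fast livers lies outside the first of these intervals. The genes whose pattern over the 16 libraries lay nearest to Igf1 were Ndfip2, Ptcd2 and Tvp23b, with mean absolute differences of 0.12, 0.12 and 0.13 in centred log2 CPM among 11003 genes compared, against a mean absolute deviation of 0.18 for Igf1 itself.

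Igfals (ENSMUSG00000046070, chr17:24865997-24882010, plus strand) encodes the acid-labile subunit that stabilises the circulating complex. It ranged from 74.9 to 132 CPM in CD fed, 74.8 to 135 CPM in CD fast, 76.6 to 99.0 CPM in HFD fed and 79.1 to 123 CPM in HFD fast livers, and it was called in no contrast (log2 changes from −0.26 to 0.22, edgeR adjusted p of 0.444 or more). RefSeq gives this gene several starts, and the windows of 300 bases around a pair of them hold a TTCNNNGAA match each, at 58 and 236 bases before the respective start. Both are shown for comparison with Cish, on the plus strand of GRCm38.p6 at chr17:24878162-24878191 and chr17:24877597-24877626.
Igfals downstream start: tctgccaggtgTTCCTAGAAgaggccctgg
Igfals upstream start: cgatctataatTTCTCAGAAaagaggctga

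Transcripts of the smaller binding proteins Igfbp2 and Igfbp4 rose on fasting in CD, and that of Igfbp1 was lower on HFD in fasted mice. Igfbp2 (ENSMUSG00000039323, chr1:72824503-72852474, plus strand) measured 373, 379, 187 and 276 CPM in CD fed livers and 927, 869, 743 and 620.2 CPM in CD fast livers. Every CD fast liver lay above every CD fed liver, a 2.60-fold rise (log2 1.38, SE 0.36, edgeR adjusted p = 0.0119), and with any single library left out the adjusted p stayed at or under 0.0372. In HFD livers the values split within each group, at 235, 393, 205 and 612 CPM when fed and 787, 361, 327 and 765 CPM when fasted. The fasting change there was 0.63 (95% interval −0.12 to 1.39, adjusted p = 0.281), and its difference from the change in CD, −0.74 (SE 0.50), did not pass the interaction test (adjusted p = 0.425).

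Igfbp4 (ENSMUSG00000017493, chr11:99041244-99054392, plus strand) encodes a binding protein that holds IGFs until it is cleaved by pappalysins. It measured 894, 1052, 983 and 1164 CPM in CD fed, 1254, 1639, 1514 and 1688 CPM in CD fast, 1135, 1291, 1181 and 1258 CPM in HFD fed and 1498, 1576, 1328 and 1259.7 CPM in HFD fast livers. The rise on fasting in CD was 1.49-fold (log2 0.57, SE 0.11, edgeR adjusted p = 0.00228), with no overlap, and adjusted p was at most 0.00951 with any single library left out. HFD fed livers lay between CD fed and CD fast livers in their mean (1216 ± 71.3 CPM, SD, n = 4), but neither the diet difference in fed mice (log2 0.25, SE 0.11, adjusted p = 0.207) nor the fasting change in HFD (0.22, SE 0.11, adjusted p = 0.247) was called. Igfbp4 had the lowest spread between livers of a group of all 10 members, with an SD of 0.15 in log2 CPM.

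Igfbp1 (ENSMUSG00000020429, chr11:7197782-7202546, plus strand), the binding protein that insulin represses, was the only member called for HFD against CD in fasted mice (1 of 10, against 7.7% of all genes tested). It measured 39.7, 616, 38.0 and 117 CPM in CD fast livers and 18.3, 11.4, 11.1 and 31.9 CPM in HFD fast livers. The groups did not overlap (against 14.0% of all genes), with the lowest CD fast liver at 38.0 and the highest HFD fast liver at 31.9 CPM. The fitted change was −3.48 (SE 0.85, edgeR adjusted p = 0.0236), but the CD fast mean of 203 ± 278 CPM (SD, n = 4) rests on replicate 2. Without that library the change was −1.83 (adjusted p = 0.0904), and the call was also lost without HFD fast replicate 2 (0.0522) or 3 (0.0716), with limma-voom (−2.64, 0.0593) and in a fit of the compared groups alone (0.0790).

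In fed livers Igfbp1 measured 83.9, 80.0, 23.0 and 117 CPM on CD and 20.5, 31.4, 52.3 and 100.3 CPM on HFD. Against these, 3 of the 4 CD fast livers lay within the CD fed range, and the fasting change in CD was 1.41 (95% interval −0.26 to 3.08, edgeR adjusted p = 0.204), turning to −0.23 without CD fast replicate 2. In HFD it was −1.49 (−3.18 to 0.20, adjusted p = 0.256). The genes nearest to Igfbp1 in pattern were Got1, a cytosolic aspartate aminotransferase, Fst, a secreted binder of activins, and Irs2, an adaptor of the insulin receptor, with mean absolute differences of 0.56, 0.59 and 0.69 in centred log2 CPM against 1.16 for Igfbp1 itself. All 3 were also highest in CD fast replicate 2, which follows in part from choosing them by their likeness to Igfbp1, at 1063 CPM for Got1, 9.52 CPM for Fst and 69.1 CPM for Irs2.

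The Igfbp1 promoter is shown because it is the classical site of insulin repression. The letters CAAAACA, the core of the insulin response element known from this gene, were searched on both strands in the 300 bases around each RefSeq start (250 before, 50 after). They occur in 6.28% of 32851 such windows (7.2% of 27025 genes) and, among the 9 members in the table, in Igfbp1 alone, 108 bases before its start. The stretch is chr11:7197619-7197745 on the plus strand of GRCm38.p6, with the match in capitals.
Igfbp1: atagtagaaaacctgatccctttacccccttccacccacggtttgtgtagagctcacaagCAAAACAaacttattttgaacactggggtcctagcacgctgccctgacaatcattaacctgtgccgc

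**Figure D2:**
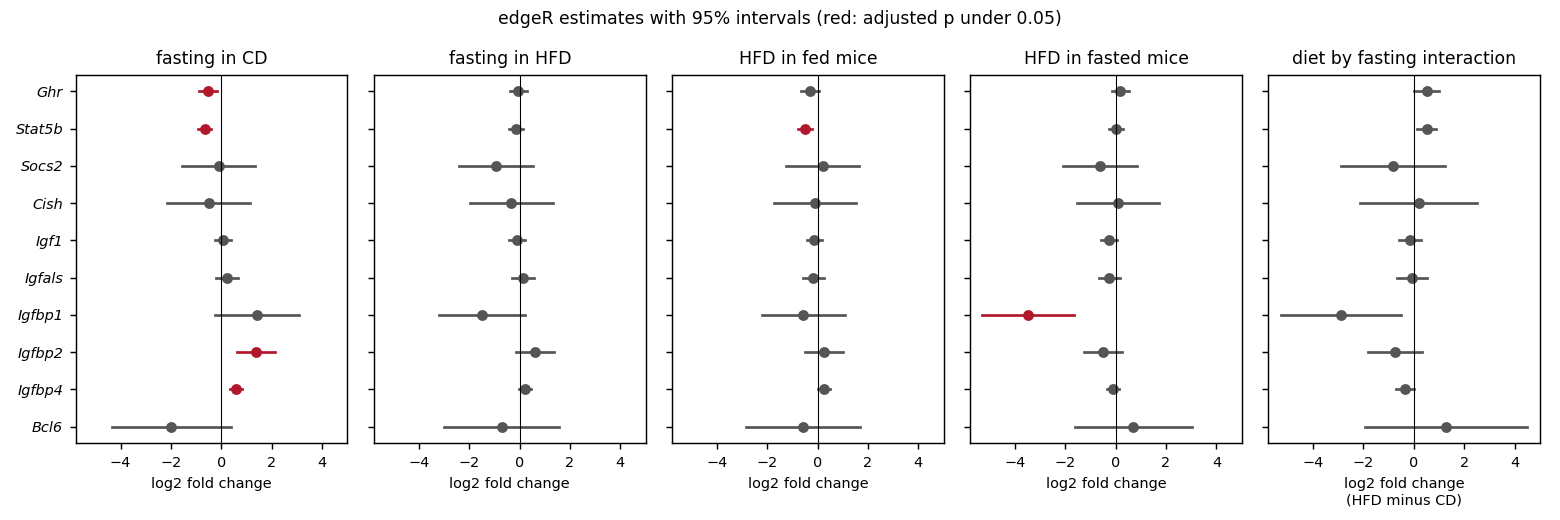
Fitted changes of the 10 axis genes in each contrast. The horizontal axis gives the edgeR log2 fold change, bars are 95% intervals and red marks adjusted p under 0.05; the interaction panel subtracts the CD fasting change from the HFD one. Red appears for 4 genes in fasting in CD, for Stat5b in the fed diet contrast and for Igfbp1 in the fasted one, and the intervals of Bcl6, Cish and Socs2 span several log2 units.

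Bcl6 (ENSMUSG00000022508, chr16:23965052-23988852, minus strand) encodes a transcriptional repressor that binds many of the sites STAT5 uses and whose own gene STAT5 represses. It measured 98.1, 10.4, 14.4 and 84.9 CPM in CD fed livers and 40.5, 2.94, 3.98 and 5.14 CPM in CD fast livers. In HFD livers it measured 9.95, 77.5, 44.2 and 7.74 CPM when fed and 6.96, 67.8, 5.70 and 5.17 CPM when fasted. Each fed group split into a pair of high and a pair of low livers, and each fasted group held a single high liver. No contrast was called. The fasting change in CD was −1.99 (95% interval −4.34 to 0.37, edgeR adjusted p = 0.205), and without CD fast replicate 1 it was −3.69 (adjusted p = 0.0418). The genes nearest in pattern were Ppp1r3c and Ppp1r3b, which encode glycogen-targeting subunits of protein phosphatase 1, and Ces4a, at mean absolute differences of 1.05, 1.11 and 1.14 against 1.55 for Bcl6 itself. They were chosen for this likeness among 11003 genes. In both fasted groups the liver highest in Bcl6 was also highest in Ppp1r3c and Ppp1r3b. In CD fed livers, however, Ppp1r3b stayed at 402 to 426 CPM. Ppp1r3c was lowest there (56.6 CPM) in the liver highest in Bcl6.

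The upstream stretches of Bcl6 are shown because a window of this gene holds 3 matches to the same motif, the most in any window of the members in the table. TTCNNNGAA occurs in 8.3% of the 32851 windows and in 9.55% of 27025 genes, and in 3 of the 9 members in the table (Bcl6, Cish and Igfals). Socs2, the member not in the table, was not searched. At the first RefSeq start it lies 118 bases upstream, and at the second it occurs 168, 122 and 88 bases upstream. The stretches are chr16:23988902-23989030 and chr16:23981303-23981511, written on the minus strand from 5′ to 3′, with matches in capitals.
Bcl6 first start: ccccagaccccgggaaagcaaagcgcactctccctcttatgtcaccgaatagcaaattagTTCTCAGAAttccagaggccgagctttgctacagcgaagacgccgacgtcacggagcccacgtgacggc
Bcl6 second start: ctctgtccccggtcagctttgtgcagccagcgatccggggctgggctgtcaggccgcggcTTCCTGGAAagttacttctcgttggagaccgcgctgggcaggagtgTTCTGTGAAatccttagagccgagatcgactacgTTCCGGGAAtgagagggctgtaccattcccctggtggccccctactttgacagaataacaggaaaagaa

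The spread of Bcl6, Cish, Igfbp1 and Socs2 between livers lay in the top 1% of all genes tested. The SD of log2 CPM between livers of the same group was 1.69 for Bcl6, 1.42 for Cish, 1.23 for Igfbp1 and 1.14 for Socs2, against a median of 0.21 over all genes tested. Bcl6 varied more than 99.9% of the tested genes, Cish more than 99.7%, Igfbp1 more than 99.4% and Socs2 more than 99.3%. The remaining members were ordinary in this respect, from Igfbp4 at 33.5% to Igfals at 68.4%, with Igfbp2 at 90.7% in between the tiers. The lowest counts behind these values were 94 for Cish, 95 for Socs2 and 115 for Bcl6, so that counting error is far smaller than the fold spans of 21.9 to 55.3 over the 16 libraries.

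**Figure D3:**
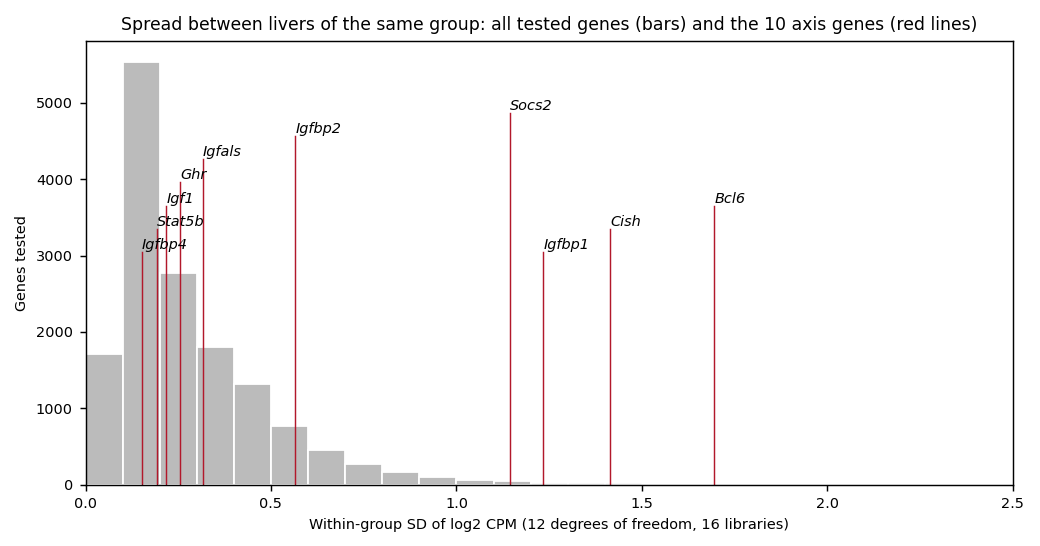
Spread between livers of the same group for every gene tested. The horizontal axis gives the within-group SD of log2 CPM, bars count genes among 15075 and red lines place the 10 axis genes; genes above 2.5 are not drawn. Socs2, Igfbp1, Cish and Bcl6 lie in the sparse right tail beyond 1.1, apart from the other 6.

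Bcl6 and Cish were set side by side within groups, a pairing that was noticed after the values were seen and that did not pass adjustment over the pairs compared. In 4 of 4 groups the liver with the highest Bcl6 had the lowest Cish: 98.1 against 5.74 CPM in CD fed, 40.5 against 2.22 CPM in CD fast, 77.5 against 9.30 CPM in HFD fed and 67.8 against 5.60 CPM in HFD fast. CD fed replicate 4 goes against it, with Bcl6 at 84.9 and Cish at 45.5 CPM, both high in their group.

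Over deviations from the group means in all 16 livers, 45 pairs of members were compared, with p-values from 100000 permutations within groups. Cish and Bcl6 gave the largest r in size (Pearson r = −0.79, permutation p = 0.00207, adjusted p = 0.0774; Spearman rho = −0.68, p = 0.0109, adjusted p = 0.162). It was r = −0.70 without the 2 livers farthest out, and −0.79 without the HFD libraries numbered 4. Socs2 and Igf1 followed (r = 0.75, permutation p = 0.00344, adjusted p = 0.0774; rho = 0.61, p = 0.0273, adjusted p = 0.189), with r = 0.66 both without the 2 farthest livers and without the HFD libraries numbered 4. Ghr and Igfals gave r = 0.66 (permutation p = 0.0106, adjusted p = 0.127) and rho = 0.82 (p = 0.000260, adjusted p = 0.0117), with r = 0.57 without the 2 farthest. The last rho was the only one of the 45 pairs past an adjusted 0.05 by either measure.

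**Figure D4:**
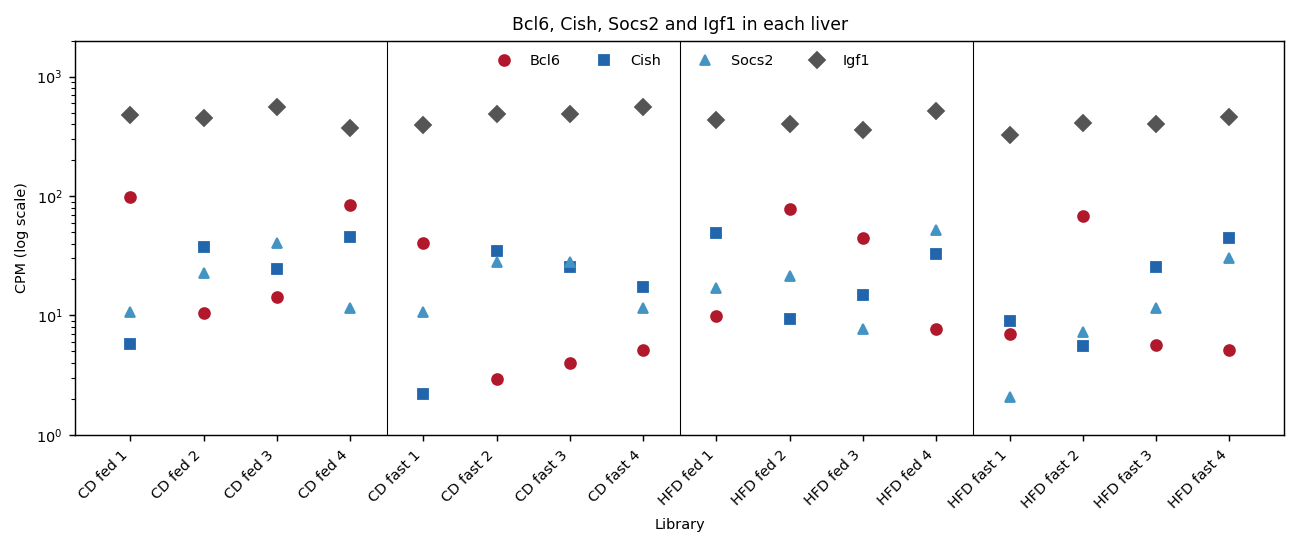
Bcl6, Cish, Socs2 and Igf1 in each of the 16 livers. The vertical axis gives TMM-scaled CPM on a log scale, and vertical lines separate the groups. The livers highest in Bcl6 in each group are lowest in Cish, and Igf1 stays between 324 and 557 CPM throughout.

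Fasting on the high-fat diet gave no call in the axis. None of the 10 members was called for fasting in HFD by edgeR, DESeq2 or limma-voom, none had an unadjusted p under 0.05 (against 25.6% of all genes), and none separated the libraries, against 8.86% of all genes tested called and 16.7% without overlap. Whether the fasting change differed between the diets was tested as the interaction. No member passed it after adjustment by edgeR, DESeq2 or limma-voom (0 of 10, against 2.59% of all genes tested), and 4 members had an unadjusted p under 0.05 (against 20.2% of all genes). These were Stat5b (0.52, SE 0.18, edgeR adjusted p = 0.124), Igfbp1 (−2.90, SE 1.12, adjusted p = 0.161), Igfbp4 (−0.36, SE 0.16, adjusted p = 0.235) and Ghr (0.50, SE 0.24, adjusted p = 0.246). Stat5b passed the adjusted threshold only without CD fed replicate 3 (adjusted p = 0.0495). The value of Igfbp1 was −1.26 without CD fast replicate 2 (edgeR adjusted p = 0.414). The fasting calls in CD are therefore not shown to differ from the values in HFD.

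Some markers of non-parenchymal cells were called in the same contrast as the axis genes called on fasting in CD, in which 11.5% of all genes tested were called lower. Of the 6 endothelial markers, 3 were lower in CD fast livers (Pecam1, Stab2 and Cdh5) and 3 were not called, with the summed level of all 6 at 228 to 258 CPM in CD fed and 164 to 217 CPM in CD fast livers. Of the 6 Kupffer cell markers, 3 were lower (Clec4f, Adgre1 and Csf1r) and 3 were not called, with summed ranges of 257 to 497 and 174 to 290 CPM. Of the 6 stellate cell markers 1 was lower (Reln), at 190 to 243 and 120 to 197 CPM, and of the 6 hepatocyte markers 1 was lower (Ttr), at 111253 to 144147 and 93160 to 116304 CPM. Pecam1, Stab2, Cdh5 and Reln were higher in HFD fast than in CD fast livers, the contrast in which Igfbp1 was called (against 7.7% of all genes tested called). Of the 3 erythrocyte markers, Alas2 was lower on fasting in both diets (8.86% of all genes tested were called on fasting in HFD) and higher in HFD fast than in CD fast livers, with the sum of all 3 at 270 to 346 CPM in CD fed, 172 to 304 CPM in CD fast, 238 to 266 CPM in HFD fed and 254 to 402 CPM in HFD fast livers. The exocrine pancreas marker Cela2a, the only one of its 5 markers tested, was also lower on fasting in CD, at 0.365 CPM or less in all libraries. The part of these markers in the changes of Ghr, Stat5b, Igfbp1, Igfbp2 and Igfbp4 was not tested.

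Around these members, 22 other genes of growth hormone and IGF action were read (kinases, phosphatases, receptors, further binding proteins, and Fgf21 with its co-receptor Klb), of which Pappa and Pappa2 did not pass the filter. On fasting in CD 1 of 20 was called (against 25.2% of all genes tested), Ptpn6, a phosphatase that dampens cytokine receptor signalling, which rose from 23.5 ± 3.09 to 31.4 ± 4.45 CPM (SD, n = 4 each; log2 0.42, SE 0.12, edgeR adjusted p = 0.0176). The list's median change was −0.13, against −0.01 over all genes. The kinase gene Jak2 (−0.19, SE 0.11, adjusted p = 0.228) and Igfbp3, which encodes the carrier of the circulating complex (−0.09, SE 0.33, adjusted p = 0.878), were not called and are named outside the rule for their roles. The call of Ptpn6 was lost without CD fed replicate 3 or CD fast replicate 2 (edgeR adjusted p of at most 0.0632). Without both HFD libraries numbered 4 Igfbp7 was called besides it (2 of 20, against 27.3% of all genes in that fit).

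On fasting in HFD 3 of 20 were called (against 8.86% of all genes tested), with 1 higher and 2 lower. Klb, the co-receptor for FGF21, fell from 43.8 ± 1.99 to 27.2 ± 2.41 CPM (log2 −0.69, SE 0.09, edgeR adjusted p = 0.00069), Hnf4a, a master regulator of hepatocyte genes, fell from 986 ± 114 to 674 ± 52.9 CPM (−0.55, SE 0.10, adjusted p = 0.00601), and the scavenging receptor Igf2r rose from 56.9 ± 5.05 to 68.6 ± 5.52 CPM (0.27, SE 0.08, adjusted p = 0.0479). The calls of Klb and Hnf4a held with any single library left out, whereas that of Igf2r was lost in 14 of 16 such omissions (adjusted p of at most 0.134) and without both HFD libraries numbered 4 (0.138). The median change was 0.06, against 0.01 over all genes.

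Diet in fed mice changed 0 of the 20 by edgeR (1 at an unadjusted p under 0.05, against 22.9% of all genes tested), against 7.5% called, with a median of 0.050 against 0.01 over all genes. In fasted mice 2 were called (against 7.7% of all genes tested), with a list median of 0.18 against 0.01 over all genes. Without both HFD libraries numbered 4 the same counts were called, against 7.27% (fed) and 4.27% (fasted) of all genes in that fit. The list medians were then −0.043 in fed and 0.087 in fasted mice. Klb stood at 48.7 ± 6.87 CPM in CD fast and 27.2 ± 2.41 CPM in HFD fast livers (−0.84, SE 0.09, edgeR adjusted p = 0.000881), while Stat5a, the paralogue of Stat5b, was higher in HFD with overlapping groups and is named outside the rule on separation (0.54, SE 0.15, adjusted p = 0.0405), a call lost in 11 of 16 omissions of a single library. Klb was also the only gene of the list that passed the interaction test (1 of 20). Of all genes tested, 2.59% passed it. The value of Klb was −0.81 (SE 0.13, edgeR adjusted p = 0.00838). Its level on fasting thus differed between the diets, at 41.2 to 48.0 and 41.3 to 57.7 CPM in fed and fasted CD livers and 42.0 to 46.6 and 25.6 to 30.8 CPM in fed and fasted HFD livers.

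In rodents the pattern of growth hormone pulses sets sex-biased gene expression in hepatocytes, with STAT5B needed for most male-biased genes, BCL6 known as a repressor of female-biased genes and CUX2 as a female-biased repressor of male-biased ones. Of 12 male-biased genes 11 were tested (Moxd1 was not), and 5 fell on fasting in CD (against 25.2% of all genes tested called and 11.5% called lower), with a list median of −0.80 against −0.01 over all genes. As this list was chosen with earlier results of these data known, its counts and medians do not test the male-biased genes as a set. Hsd3b5 fell from 221 ± 50.3 to 5.12 ± 2.89 CPM (−5.43, SE 0.97, edgeR adjusted p = 0.00105), Selenbp2 from 483 ± 307 to 31.9 ± 20.7 CPM (−3.92, SE 0.78, adjusted p = 0.00226) and Elovl3 from 436 ± 156 to 127 ± 42.8 CPM (−1.77, SE 0.37, adjusted p = 0.00288). The others called, named for their values in HFD, were Slco1a1 and Gstp1. Among the genes not called on fasting in CD, named outside the rule, Cyp2d9 (0.34), Cyp4a12b (0.29) and Susd4 (0.19) had positive log2 changes. Those of Cyp4a12a, Cyp7b1 and Mup20 were negative. The same 5 genes fell on fasting in HFD (against 8.86% of all genes tested called and 614 of 15075 called lower, list median −0.90 against 0.01), where only Slco1a1 (−1.68, SE 0.35, adjusted p = 0.0104) and Gstp1 (−1.52, SE 0.21, adjusted p = 0.00069) separated the libraries. All 5 calls in CD, and those of Slco1a1 and Gstp1 in HFD, held with any single library left out, whereas in HFD that of Elovl3 was lost in 11 of 16 such omissions, that of Selenbp2 in 5 and that of Hsd3b5 in 3. Without both HFD libraries numbered 4, 6 of 12 male-biased genes tested (Moxd1 then passed the filter) were called lower on fasting in CD, against 27.3% of all genes called in that fit, the sixth being Cyp7b1 (−0.88, adjusted p = 0.0455, against 0.110 with all 16 libraries), and the same 5 of 12 on fasting in HFD, against 6.81%. Diet lowered 1 of 11 in fed mice (against 7.5% of all genes tested called, list median −0.44 against 0.01) and 2 of 11 in fasted mice (against 7.7%, list median −0.38 against 0.01), Cyp4a12b in both (−1.23, adjusted p = 0.0395, and −1.37, adjusted p = 0.0251) and Gstp1 in the latter (−0.91, adjusted p = 0.0154). The call of Cyp4a12b was lost in 5 of 16 single omissions in fed and 3 of 16 in fasted mice, and that of Gstp1 without HFD fast replicate 4 (adjusted p = 0.0512). The median in fed mice is the value of Susd4, which measured 2.84 CPM in HFD fed replicate 4 and 25.5 to 35.4 CPM in the other HFD fed livers. Without both HFD libraries numbered 4 the median over the same 11 genes was −0.071 in fed and −0.36 in fasted mice. The same genes were called, against 7.27% (fed) and 4.27% (fasted) of all genes in that fit. None passed the interaction test by edgeR (against 2.59% of all genes tested), with 1 of 11 at an unadjusted p under 0.05 (against 20.2%).

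Of 16 female-biased genes 7 did not pass the filter on low counts, and Cyp2a4, Cyp2b13 and Hao2, with few or no counts in CD, passed it through the HFD livers in which they were higher. These genes had to differ between the diets to be tested, so no count of calls is given for this list in any contrast and the genes are described by their levels. Cyp2b9 was at 0.0729 to 1.06 CPM in CD fed and 12.7 to 162 CPM in HFD fed livers (edgeR adjusted p = 0.00187), and at 0.384 to 3.88 and 51.1 to 450.2 CPM in the fasted groups (adjusted p = 0.00347). Cyp2a4 was at or under 0.411 CPM in all CD livers and between 3.73 and 137 CPM in all HFD livers, with 137 and 64.8 CPM in the fed and fasted libraries numbered 4 and at most 29.1 CPM in the others. Cyp2b13 was at 0 in some CD libraries, at most 0.107 CPM in any CD liver and 0.241 to 9.84 CPM in HFD livers. For counting error only, a count of 0 allows up to 3 counts. Depending on the library, this is 0.0521 to 0.0725 CPM of the library total before TMM scaling. Hao2, named outside the rule, was at or under 0.118 CPM in CD fast and at 0.242 to 2.86 CPM in HFD fast livers. Cux2 was at 0.221 to 0.447 CPM in CD fed and 0.354 to 9.81 CPM in CD fast livers (edgeR adjusted p = 0.00177), and at 0.162 to 0.629 CPM in HFD fast livers (log2 −3.33 against CD fast, SE 0.71, adjusted p = 0.0128). Its groups overlapped in both contrasts, through the CD fast liver at 0.354 CPM, so that it is named outside the rule on separation. The other 4 genes tested (A1bg, Cyp17a1, Fmo2 and Prom1) had overlapping groups throughout and edgeR adjusted p of 0.0708 or more. Their direction with diet was mixed, A1bg being at 0.167 to 2.43 CPM in CD fed and 0 to 0.593 CPM in HFD fed livers (log2 −2.04, adjusted p = 0.233), and Cyp17a1 giving 1.25 in fed (adjusted p = 0.148) and −0.63 in fasted mice (adjusted p = 0.456). Without both HFD libraries numbered 4 the changes in fed mice were −4.28 for A1bg (edgeR adjusted p = 0.0556) and 0.56 for Cyp17a1 (0.482). The 7 genes not tested stayed at or under 0.638 CPM, and among them the fed groups did not overlap for Cyp3a16 (0.0553 to 0.638 CPM on CD and 0 to 0.0438 CPM on HFD) and Sult3a1 (0.0179 to 0.0365 CPM on CD and 0 in all 4 HFD libraries), at few or no counts.

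**Figure D5:**
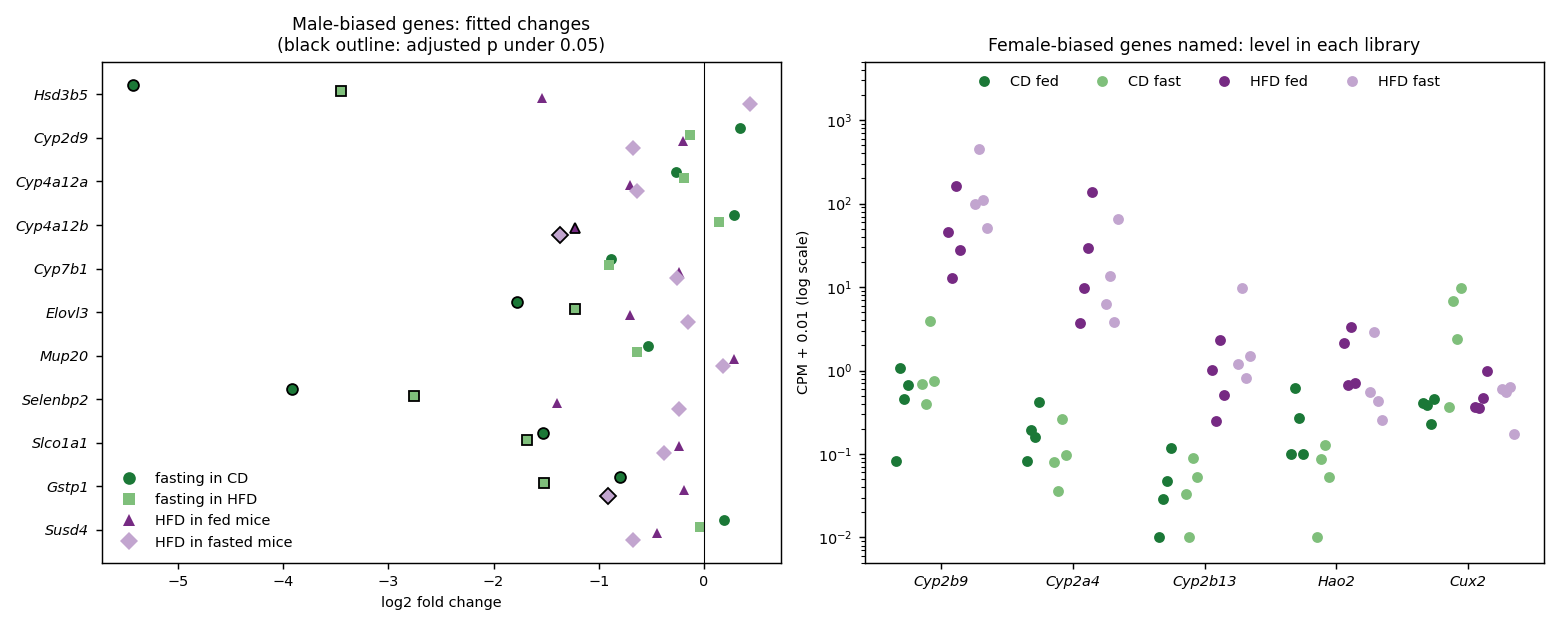
Sex-biased genes of the liver. On the left the horizontal axis gives the edgeR log2 fold change of the 11 male-biased genes tested, symbols stand for 4 contrasts and black outlines mark adjusted p under 0.05; on the right the vertical axis gives CPM + 0.01 on a log scale for the female-biased genes named, with a point for each library. Fasting symbols lie to the left of 0 for Hsd3b5, Selenbp2, Elovl3, Slco1a1 and Gstp1 in both diets, and Cux2 reaches its highest level, 9.81 CPM, in a CD fast liver.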

How the data were processed

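Livers of 16 mice were profiled by poly(A) RNA-seq. Depth was 41364448 to 57583153 counts per library. The deposited gene counts, with no normalization, were made by the authors, who per the methods and processing notes used CASAVA, TopHat2 2.0.11 against GRCm38 and featureCounts; reads were aligned as fr-firststrand, and the annotation release and strand setting of the counting are not given in the sources used here. Gene names came from the reference tables (45143 of 46078 identifiers matched) and gene positions from the GENCODE annotation of GRCm38.

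Counts were filtered with filterByExpr, scaled by TMM and fitted with edgeR 4.0.16 (R 4.3.3) over all 16 libraries, with 1 coefficient per group. SEs are the log2 fold change divided by the root of F. Benjamini-Hochberg adjustment ran over all 15075 genes tested. Alternatives used DESeq2 1.42.0, limma-voom (limma 3.58.1), other scalings and filters, the replicate number as a block and leaving out libraries. The edgeR, limma-voom and DESeq2 fits were tested on simulated counts with the same spread for every gene. This does not cover genes as variable as Bcl6, Cish, Igfbp1 and Socs2. All 24 comparisons of replicate libraries differed by more than sampling noise.

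The 10 members, the gene lists and the tests were chosen with earlier results of these data known. All members are named. A listed gene is not reported here and was left out of its list's counts and medians. Listed genes are named where called without overlap of the libraries, at most 3 per direction and contrast. Others are marked as outside that rule or serve other statements. These are a list's median, the filter, calls in other fits and the description of the female-biased list. Nearest genes were sought among genes with a mean of at least 100 counts. All 16 columns of counts were used. Counts carry no molecular identifiers, and the p-values measure the spread between these mice.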

Additional observations from a re-analysis of the deposited data

Results flagged for a closer look

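Each group of 4 libraries was tested for a single value far from the others, over the 10 axis genes in 4 groups (40 groups). Dixon's gap test was used on CPM, at its 95% critical value. Chance flags about 1 in 20 groups if values follow a normal distribution. For genes that spread over many folds, such as Igfbp1 and Bcl6, high values on the CPM scale are flagged more often. Igfbp1 stood at 615.8 CPM in CD fast replicate 2, with the other CD fast livers at 38.0 to 117 CPM (gap 0.864). Bcl6 stood at 40.5 CPM in CD fast replicate 1, with the others at 2.94 to 5.14 CPM (gap 0.942). Bcl6 also stood at 67.8 CPM in HFD fast replicate 2, with the others at 5.17 to 6.96 CPM (gap 0.971). In both livers flagged for Bcl6, Cish was the lowest of its group, at 2.22 and 5.60 CPM. This pairing was noticed after the values were seen and did not pass adjustment. CD fed replicate 4, high in Bcl6 but not flagged, had the highest Cish of its group.

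The fasting change of Klb differed between the diets by −0.81 on the log2 scale (HFD minus CD, edgeR interaction test, adjusted p = 0.00838). All 4 HFD fast livers lay under all other libraries for this gene.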

How the results depend on the processing

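At the 0.05 threshold the fasting calls of Stat5b, Igfbp2 and Igfbp4 in CD held in every fit run at that threshold, and that of Ghr in all but the 4 single-library omissions given with its values. Of 1290 log2 fold changes of axis genes under other settings, 1228 kept their direction and side of the threshold and 44 changed sign, none of them a called value. At an adjusted p under 0.01, the axis genes called were 2 for fasting in CD, 0 for HFD in fed mice and 0 for HFD in fasted mice. For HFD in fed mice the count was 0 with only the compared groups in the fit and 0 with both HFD libraries numbered 4 left out (chosen after seeing the data), and 0 to 1 with single libraries left out. For HFD in fasted mice it was 0 with limma-voom, 0 with only the compared groups in the fit and 0 to 1 with single libraries left out. For the interaction it was 0 to 1 with single libraries left out.

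Without both HFD libraries numbered 4, the log2 changes of Socs2 (−0.46) and Igfbp2 (−0.13) for HFD in fed mice, and of Cish for HFD in fasted mice (−0.58) and for the interaction (−0.35), changed sign. With total count scaling those of Igfbp4 for HFD in fasted mice (0.051) and Igfals for the interaction (0.0039) did. With single libraries left out, sign changes fell in these ranges. For fasting in CD they were −0.35 to 0.39 (Socs2), −0.040 to 0.15 (Igf1) and −0.23 to 1.76 (Igfbp1). For fasting in HFD they were −0.21 to 0.075 (Ghr), −0.99 to 0.15 (Cish), −0.014 to 0.22 (Igfals) and −2.56 to 0.052 (Bcl6). For HFD in fed mice they were −0.46 to 0.71 (Socs2), −0.58 to 0.22 (Cish) and −0.13 to 0.44 (Igfbp2). For HFD in fasted mice they were −0.046 to 0.057 (Stat5b), −0.58 to 0.49 (Cish) and −1.15 to 2.41 (Bcl6), and for the interaction −0.48 to 0.66 (Cish), −0.25 to 0.032 (Igfals) and −0.57 to 2.98 (Bcl6). Their cause was not tested.

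The labels do not say that a replicate number marks a shared animal or batch, and same-numbered deviations did not all correlate by over 0.1: r ran from 0.052 to 0.112 for fasting in CD, 0.058 to 0.662 for fasting in HFD, −0.185 to 0.206 for HFD in fed mice and −0.243 to 0.111 for HFD in fasted mice. Over 4 contrasts and 4 numbers, 7 of 16 comparisons were highest for the same number, including all 4 for fasting in CD, as a hint from the data and not the design. With the number as a replicate block, the counts of axis genes called stayed at 4 (fasting, CD), 0 (fasting, HFD), 1 (diet, fed), 1 (diet, fasted) and 0 (interaction), those of all genes went, in the same order, from 3797 to 3948, 1335 to 1440, 1131 to 1207, 1161 to 1290 and 390 to 359, and the log2 changes of Cish turned to 0.29 for HFD in fed mice, −0.018 for HFD in fasted mice and −0.31 for the interaction.

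Over all genes, DESeq2 called 1768 for HFD in fed mice, 1967 for HFD in fasted mice and 1020 for the interaction. Only the compared groups in the fit gave 90 for HFD in fasted mice, and leaving out both HFD libraries numbered 4 gave 645 there and 226 for the interaction. At an adjusted p under 0.01 the counts were 1859 for fasting in CD, 331 for fasting in HFD, 338 for HFD in fed mice, 217 for HFD in fasted mice and 31 for the interaction. Total count scaling shifted the median of all genes by 0.16 for HFD in fasted mice, with 2101 calls, of which 88.1% were higher against 39.6%. Elsewhere it moved that share from 54.4% to 44.3% (fasting, CD), 54.0% to 67.6% (fasting, HFD), 43.8% to 68.8% (diet, fed) and 47.4% to 69.5% (interaction), and upper quartile scaling moved that for HFD in fasted mice to 51.2%. With single libraries left out the counts ran from 2857 to 3958 for fasting in CD, 505 to 1533 for fasting in HFD, 514 to 1268 for HFD in fed mice, 535 to 1354 for HFD in fasted mice and 147 to 461 for the interaction. Every axis gene had at least 94 counts in each library, so depth sets no limit on its detection.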
